A study of Cucumis sativus with 4 samples.

Results

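The genes described here are 278 abundant cucumber (Cucumis sativus) genes for which the deposited expression table lists no Arabidopsis homologue. They were chosen by their own expression values: a gene had to have no homologue ID and to reach at least 20 RPKM (reads scaled by gene length in kilobases and by library depth in M reads, where M stands for mega) in at least 1 of the 4 libraries. Of 18665 genes in the table, 1011 had no homologue ID, and 278 of these reached the threshold, which is 27.5%. Of the genes with a homologue, 6905 reached it, which is 39.1%. The libraries were low nitrogen leaf, control leaf, low nitrogen root and control root, with 1 library in each group, from plants grown in sand and sampled 28 days after sowing. Low nitrogen plants were fed 1 mM nitrogen, from KNO3 at 0.8 mM and Ca(NO3)2 at 0.1 mM, and control plants 5 mM nitrate, from KNO3 at 4 mM and Ca(NO3)2 at 0.5 mM. Low nitrogen feed alone carried K2SO4 (1.2 mM), KCl (0.8 mM) and CaCl2 (0.4 mM), so that less nitrate and more sulfate and chloride cannot be told apart. KH2PO4 and MgSO4 at 0.25 mM each and NaCl at 0.2 mM were common to both feeds. Since each group is a single library, differences come without a replicate check or a p-value.

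Genes without a recognisable homologue in another well-studied species are often called lineage-restricted or orphan genes. In plants they are known for encoding short proteins and for being expressed in few tissues, and they include small secreted peptides and fast-evolving defence genes as well as mispredicted or non-coding transcripts. The sources used here do not state how homologues were assigned, so a missing ID says only that none was listed. None of the 278 genes had a symbol. The IDs of the table are of another kind than those of the 23999 RefSeq genes of cucumber, and 0 of all 18665 genes matched. No role can therefore be given for any of them, and each is named by its scaffold and its deposited length.

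The organs carried their own markers. The 7 genes matching 5 of the 7 listed leaf photosynthesis homologues summed to 16521 RPKM in low nitrogen leaf and 36555 in control leaf, against 71.9 in low nitrogen root and 64.05 in control root. The 15 genes matching 6 of the 7 root homologues summed to 37.6 and 41.8 RPKM in low nitrogen and control leaf, and to 263 and 633 RPKM in low nitrogen and control root, and 7 and 11 of them were listed at 0 in the leaf libraries. Of the 7 root homologues, CASP1, a protein of the root endodermis, was the one for which no gene was found. The 10 phloem genes found summed to 103 RPKM in low nitrogen leaf and 507 in control leaf, and to 563 in low nitrogen root and 712 in control root. The depths recovered from the steps between RPKM values were 2.74 M reads for low nitrogen leaf, 2.93 M for control leaf, 3.98 M for low nitrogen root and 4.23 M for control root.

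The 278 genes took a larger share of root than of leaf expression. They held 3.56% of the RPKM sum in low nitrogen leaf and 3.28% in control leaf, against 5.75% in low nitrogen root and 6.28% in control root. A few genes carried much of this, since the 10 highest in each library held 54.4% of the sum of the 278 genes in low nitrogen leaf, 56.9% in control leaf, 36.7% in low nitrogen root and 39.6% in control root. Their median level was 25.5 RPKM in low nitrogen leaf, 19.2 in control leaf, 44.3 in low nitrogen root and 40.5 in control root. In the 6905 abundant genes with a homologue the medians were 27.4, 22.3, 31.7 and 30.7 RPKM in the same order. Levels were used to choose the genes, so these values are a description.

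Genes without a homologue made up 3.05% of the 5188 genes whose highest value lay at 20 to under 100 RPKM. They made up 5.57% of the 1635 genes at 100 to under 500 RPKM and 8.06% of the 360 genes at 500 RPKM or more. Their share was also 8.09% among the 2213 genes under 1 RPKM, so it was higher at both ends of the range than in between. The 5 genes just inside the threshold had highest values between 20.32 and 20.85 RPKM, and the 5 just outside it lay between 19.77 and 19.98 RPKM.

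The highest of all was the 1617-base gene on scaffold01028, at 8376 RPKM in low nitrogen leaf and 7238 in control leaf and listed at 0 in both root libraries. This one gene held 31.8% of the sum of the 278 genes in low nitrogen leaf and 28.7% in control leaf. For comparison, the gene listed as a homologue of LHCB1.3, a light-harvesting protein that binds chlorophyll, was at 8956 and 20926 RPKM in low nitrogen and control leaf and at 46.6 and 39.3 RPKM in low nitrogen and control root.

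The second was its opposite, a 632-base gene on scaffold01658 listed at 0 in both leaf libraries and at 3473 RPKM in low nitrogen root and 3844 in control root. The third, of 1613 bases on scaffold03611, was at 2.63 and 2.11 RPKM in low nitrogen and control leaf and at 3012 and 2320 RPKM in low nitrogen and control root. Both were root genes whose levels in the root libraries differed by less than 2-fold.

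Among the next, the 949-base gene on scaffold02018 was at 13.8 and 25.2 RPKM in low nitrogen and control leaf, and at 1004 and 2657 RPKM in low nitrogen and control root. The 10101-base gene on scaffold01239, the longest of the 278, was at 415 and 1809 RPKM in low nitrogen and control leaf, and at 10.2 and 62.4 RPKM in low nitrogen and control root. The 792-base gene on scaffold02229 was at 1651 and 1161 RPKM in low nitrogen and control leaf, and at 31.1 and 7.97 RPKM in low nitrogen and control root. Thus 3 of the 6 highest genes were leaf genes and 3 were root genes.

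The remaining 4 of the 10 highest were all highest in root. The 703-base gene on scaffold00927 was listed at 0 in both leaf libraries and was at 1091 RPKM in low nitrogen root and 1476 in control root. The 1040-base gene on scaffold02951 was at 43.5 and 61.5 RPKM in low nitrogen and control leaf, and at 842 and 1308 RPKM in low nitrogen and control root. The 881-base gene on scaffold01116 was at 21.6 and 134 RPKM in low nitrogen and control leaf, and at 1054 and 1133 RPKM in low nitrogen and control root.

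The 208-base gene on scaffold01333 was the even one of the 10, at 798 RPKM in low nitrogen leaf and 798 in control leaf, and at 1113 RPKM in low nitrogen root and 1053 in control root. The plot of levels by library shows this gene as the flattest line among the 10. All 10, this gene included, differed more between organs than between solutions in the log2 ratios of either kind.

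**Figure D1:**
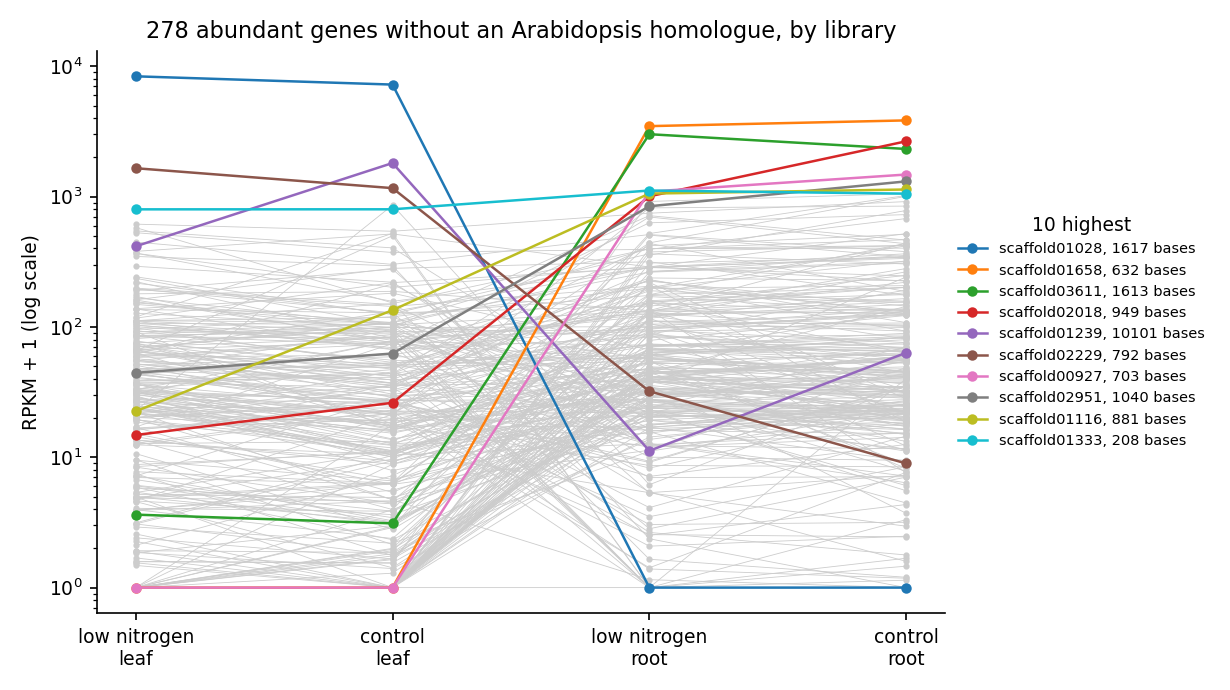
RPKM + 1 on a log scale (vertical axis) of the 278 genes in each of the 4 libraries (horizontal axis), 1 line per gene, with the 10 highest in colour and the others in grey. The scaffold01028 gene stands at 8376 and 7238 RPKM in low nitrogen and control leaf and at 0 in both root libraries, and the scaffold01658 gene of 632 bases shows the reverse pattern.

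The first comparison was between the organs. A gene was counted as leaf or root preferring when log2((leaf + 1)/(root + 1)) of the RPKM was at least 1 or at most -1 with both solutions. By this rule 130 of the 278 genes (46.8%) were root preferring, 47 (16.9%) were leaf preferring and 101 (36.3%) were neither. Among the 6905 abundant genes with a homologue 31.6% were root preferring and 19.7% leaf preferring. Over all genes compared with both solutions the shares were 27.5% and 15%.

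In bulk samples fewer cells of a type and less RNA per cell cannot be told apart. In the control libraries 52 of the 278 genes were higher in leaf, where 17.6% of all genes compared were, and 166 were higher in root, where 40.4% of all genes were lower in leaf; either way 218 of the 278 genes (78.4%) passed, against 58% of all. The median log2 ratio of control leaf to control root was -1.55 over the 278 genes, -0.73 over the abundant genes with a homologue and -0.65 over all genes compared. In the low nitrogen libraries 54 of 277 genes compared were higher in leaf, against 20% of all genes, and 138 were lower in leaf, against 31.2%, so 192 (69.3%) passed either way, against 51.2% of all. The median there was -0.99, beside -0.38 for the abundant genes with a homologue and -0.30 for all genes. The median of all genes was itself below 0. With the scaling that brought it nearest to 0 in the controls, the median ratio scaling, 68 genes were higher and 135 lower in control leaf. These were 24.5% and 48.6%, against 24.8% and 28.0% of all genes, and the median over the 278 genes was -0.93. Ratios were taken from levels that had chosen the genes, so these shares describe the chosen genes.

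At least 5 times as high a level in root as in leaf, with both solutions, was found for 86 genes (30.9%), against 14.5% of abundant genes with a homologue, 19.0% of the 733 genes without one below the threshold and 14.6% of all genes. The reverse, at least 5 times as high a level in leaf, was found for 31 genes (11.2%), against 11.8%, 4.09% and 8.48% in the same sets. Being listed at 0 in both leaf libraries was a feature of 32 genes (11.5%), against 2.19% of abundant genes with a homologue, 31.7% of the genes without one below the threshold and 9.02% of all genes. Being listed at 0 in both root libraries was a feature of 6 genes (2.16%), against 1.14%, 9.96% and 4.68%. The 278 genes thus lay above the abundant genes with a homologue in both counts of 0, but near all genes for leaf and below them for root. The leaf libraries were shallower than the root libraries, and the part of depth in these counts was not tested.

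The most leaf-preferring genes in the controls, after the scaffold01028 gene, began with a 742-base gene on scaffold01239 at 64.4 and 500.04 RPKM in low nitrogen and control leaf and listed at 0 in both root libraries. The 1715-base gene on scaffold00020 was at 118 and 521 RPKM in low nitrogen and control leaf, listed at 0 in low nitrogen root and at 0.14 RPKM, 1 read, in control root. Its ratio of control leaf to control root was 3724, with a counting interval of 678 to 149358. The 1061-base gene on scaffold03356 was at 346 and 293 RPKM in low nitrogen and control leaf, at 1.37 in low nitrogen root and listed at 0 in control root. All 3 were below 2 RPKM in each root library.

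The most root-preferring genes were those of 632 bases on scaffold01658 and 703 bases on scaffold00927, described above. For the scaffold00927 gene the reads came to 3048 in low nitrogen root and 4388 in control root against 0 in both leaf libraries, so control leaf was at least 1015-fold lower than control root, taking a floor of 3 reads in the leaf library. The 901-base gene on scaffold00696 was listed at 0 in both leaf libraries and was at 354 RPKM in low nitrogen root and 781 in control root. The scaffold03611 gene of 1613 bases had 6 reads in control leaf and 9525 in control root, a level 1100-fold lower in leaf with a counting interval of 506 to 3001. The 632-base gene on scaffold02581 was at 0.58 and 0.54 RPKM in low nitrogen and control leaf, 1 read each, and at 917 and 1052 RPKM in low nitrogen and control root. In each of these 5 genes the lowest root value was more than 100 times the highest leaf value or the leaf values were listed at 0.

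**Figure D2:**
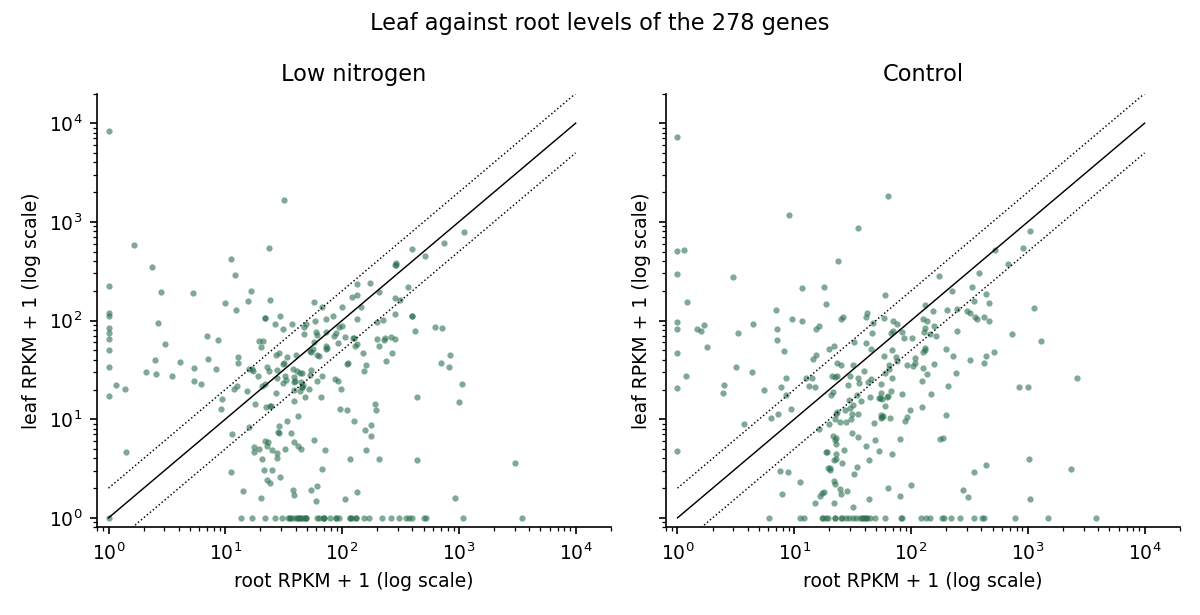
Leaf RPKM + 1 (vertical, log scale) against root RPKM + 1 (horizontal, log scale) for the 278 genes, with low nitrogen libraries on the left and control libraries on the right; the solid line marks equal levels and the dotted lines a 2-fold difference. More points lie below the lower dotted line (138 with low nitrogen, 166 in the controls) than above the upper one (54 and 52), and points along the axes are genes listed at or near 0 in an organ.

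Organ preference held with either solution for most genes. The direction between organs turned round past the threshold for 1 gene (0.360%), against 0.305% of all genes and 0.174% of abundant genes with a homologue. This was the 472-base gene on scaffold00464, listed at 0 in low nitrogen leaf and at 7.84 RPKM in control leaf. It was at 34.7 RPKM in low nitrogen root and 2.72 in control root. Its low values rest on few reads: at the deposited length they would be 10.9 reads in control leaf and 5.43 in control root.

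The second comparison was low nitrogen root against control root. Of the 265 genes whose mean over the root libraries reached 1 RPKM, 30 were higher in low nitrogen by a log2 ratio of at least 1, which is 11.3%, and 28 were lower, which is 10.6%. Over all 14532 genes compared the shares were 6.17% and 4.34%, and over the 6681 abundant genes with a homologue they were 6.20% and 4.30%. The median log2 ratio was -0.02 over the genes without a homologue and 0.04 over all genes, so they did not lean to one side but spread more widely, with a middle range (25th to 75th percentile) of -0.36 to 0.46, against -0.31 to 0.40 over all genes. The 15 root marker genes were also lower in sum, at 263 RPKM in low nitrogen root and 633 in control root, with 1 homologue of FD3, a ferredoxin of roots, at 105 and 439 RPKM making up most of the difference, and their part in these counts was not tested. Reads could be recovered for 18 of the 30 higher genes, and the counting interval of the ratio excluded 1 in all 18. For 16 lower genes with reads above 0 in both root libraries it excluded 1 in all 16. These intervals come from the same libraries as the calls and cover counting error only, so they are no second check of the calls.

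The threshold itself was passed through the values compared. Of the 30 higher genes, 13 were at the threshold in only 1 library of all 4, and so were 6 of the 28 lower ones. When the genes were chosen on the leaf libraries alone, which the root comparison does not use, 170 genes without a homologue were left and 157 could be compared. Of these 10 (6.37%) were higher and 18 (11.5%) lower in low nitrogen root, against 6.17% and 4.34% of all genes. The higher share was thus near that of all genes, and the lower share was above it. Either way it was 17.8%, against 8.51% of the 4479 genes with a homologue chosen in the same way. Of those with a homologue 233 were higher and 148 lower.

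The highest ratio in root belonged to an 858-base gene on scaffold00927 (Cucsa.101950), at 134 RPKM in low nitrogen root and 6.62 in control root, and at 0.85 and 1.99 RPKM in low nitrogen and control leaf. With 458 reads in low nitrogen root and 24 in control root it was 20.3-fold higher (counting interval 13.5 to 32.0). The second, a 377-base gene on scaffold03356 (Cucsa.337810), was at 208 RPKM in low nitrogen root and 17.6 in control root, and at 2.91 and 3.62 RPKM in low nitrogen and control leaf. The gene with the next ID on that scaffold, of 821 bases, was at 116 RPKM in low nitrogen root and 20.8 in control root, 5.58-fold higher (counting interval 4.27 to 7.39). These 3 genes were near 1 to 4 RPKM in both leaf libraries.

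Next among the highest were the 472-base gene on scaffold00464, given above, and 2 short genes listed at 0 in both leaf libraries. The 289-base gene on scaffold02385 was at 218 RPKM in low nitrogen root and 27.0 in control root, 8.09-fold higher (counting interval 5.61 to 12.0). The 211-base gene on scaffold02205 was at 87.0 RPKM in low nitrogen root and 11.2 in control root, 7.76-fold higher on 73 reads in low nitrogen root and 10 in control root (counting interval 3.99 to 16.9).

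At the lower end, the 216-base gene on scaffold03904 was listed at 0 in low nitrogen root and at 39.1 RPKM in control root, and at 0 in both leaf libraries, so that 1 library alone holds it. The 472-base gene on scaffold02653 (Cucsa.283320) was at 35.2 RPKM in low nitrogen root and 240.5 in control root, 6.84-fold lower (counting interval 5.28 to 8.99). The 1121-base gene on scaffold01001 (Cucsa.124940) was at 5.16 RPKM in low nitrogen root and 34.2 in control root, 6.62-fold lower (counting interval 4.26 to 10.7). These genes on scaffold02653 and scaffold01001 were lower in low nitrogen leaf too.

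The 10101-base gene on scaffold01239 was at 10.2 RPKM in low nitrogen root and 62.4 in control root. The 1366-base gene on scaffold01144 was at 10.3 RPKM in low nitrogen root and 47.7 in control root, 4.62-fold lower (counting interval 3.20 to 6.85), and at 6 RPKM in low nitrogen leaf and 5.20 in control leaf. It stood apart from the scaffold01239 gene in that its leaf values lay close together.

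The third comparison was low nitrogen leaf against control leaf. Of 226 genes compared, 40 (17.7%) were higher in low nitrogen leaf and 22 (9.73%) lower, against 13.6% and 3.59% of all 13384 genes. The median log2 ratio was 0.40 over the genes without a homologue and 0.33 over all genes. Relative to that all-gene median, 22 genes (9.73%) were higher and 35 (15.5%) lower, against 5.91% and 7.51% of all genes and 4.58% and 7.98% of the 6550 abundant genes with a homologue. Which direction held more genes differed with the scaling. Of the calls among genes without a homologue, 64.5% were higher as deposited, 35.8% with median ratio scaling and 39.3% with upper quartile scaling. Over all genes 1816 were higher and 481 lower as deposited. With median ratio scaling these were 817 and 1175, and with upper quartile scaling 947 and 994. The turn with scaling was thus shared by all genes. A counting interval could be had for 26 of the 40 higher genes and excluded 1 in 23. It could be had for 10 of the 22 lower genes and excluded 1 in 8. As in root, the intervals come from the same libraries as the calls.

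Chosen on the root libraries alone, which the leaf comparison does not use, 182 genes could be compared. Of these 31 (17.0%) were higher and 15 (8.24%) lower in low nitrogen leaf, against 13.6% and 3.59% of all genes. Either way it was 25.3%, against 13.6% of the 5123 genes with a homologue chosen in the same way.

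The highest ratio in leaf was that of a 153-base gene on scaffold03356, at 90.8 RPKM in low nitrogen leaf and 15.6 in control leaf, on 38 and 7 reads. Its ratio was 5.82 (counting interval 2.57 to 15.4), and it was at 47.7 and 43.3 RPKM in low nitrogen and control root. The 1650-base gene on scaffold00998 was at 21.3 RPKM in low nitrogen leaf and 3.72 in control leaf, 5.72-fold higher (counting interval 3.43 to 10.1), with 1 read in low nitrogen root and 0 in control root. The 1008-base gene on scaffold03533 was at 74.7 RPKM in low nitrogen leaf and 17.1 in control leaf, 4.37-fold higher (counting interval 3.07 to 6.34), and at 59.3 and 82.1 RPKM in low nitrogen and control root. None of these 3 was higher in low nitrogen root by the threshold.

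The other named genes on this side were of 433 and 3745 bases. The 433-base gene on scaffold02737 was at 9.67 RPKM in low nitrogen leaf and 1.80 in control leaf, on 10 and 2 reads, a ratio of 5.37 (counting interval 1.14 to 50.3). The 3745-base gene on scaffold00542 was at 578 RPKM in low nitrogen leaf and 152 in control leaf, and at 0.65 and 0.20 RPKM in low nitrogen and control root, so it was a leaf gene at much higher levels.

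The lowest ratio in leaf was that of the 1121-base gene on scaffold01001, at 21.8 RPKM in low nitrogen leaf and 859 in control leaf. It had 67 reads in low nitrogen leaf and 2823 in control leaf and was 39.3-fold lower (counting interval 30.9 to 50.9). The 737-base gene on scaffold03588 was listed at 0 in low nitrogen leaf and at 16.8 RPKM in control leaf, while it was at 121 RPKM in low nitrogen root and 148 in control root. The 742-base gene on scaffold01239 was at 64.4 RPKM in low nitrogen leaf and 500.04 in control leaf, and listed at 0 in both root libraries.

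The 881-base gene on scaffold01116, one of the 10 highest in root, was at 21.6 RPKM in low nitrogen leaf and 134 in control leaf, 6.19-fold lower (counting interval 4.61 to 8.45), while its root levels of 1054 and 1133 RPKM in low nitrogen and control root lay close together. The 604-base gene on scaffold01658 was at 3.63 RPKM in low nitrogen leaf and 20.3 in control leaf, 5.60-fold lower on 6 and 36 reads (counting interval 2.34 to 16.3). Leaf photosynthesis markers were also lower in low nitrogen leaf, with a sum of 16521 RPKM against 36555 in control leaf, and so was the sum of the phloem genes, at 103 RPKM against 507. Most of the phloem difference lay in 2 homologues of PP2-A1, a phloem lectin, at 28.03 and 36.7 RPKM in low nitrogen leaf against 266 and 189 in control leaf, while a homologue of WDY was at 6.68 RPKM in low nitrogen leaf and 3 in control leaf. The part of these markers in these results was not tested.

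The fourth comparison set the low nitrogen ratios of leaf and root against each other. Of 213 genes compared in both organs, 52 had a leaf log2 ratio higher than the root one by at least 1, against 16.4% of all genes, and 27 had a lower one, against 5.78%, shares of 24.4% and 12.7%. Either way it was 79 genes (37.1%), against 22.2% of all genes. With median ratio scaling 32 were higher and 40 lower (15.0% and 18.8%, against 8.08% and 10.8% of all genes). The 3 highest differences were 2.57 for the 798-base gene on scaffold02995, 2.53 for the 1008-base gene on scaffold03533 and 2.33 for the 153-base gene on scaffold03356. Next came a 700-base gene on scaffold00919 with 2.28, at 5.74 RPKM in low nitrogen leaf and 2.44 in control leaf on 11 and 5 reads, and at 176 RPKM in low nitrogen root and 437 in control root. At the lower end stood the 472-base gene on scaffold00464 and the 858-base gene on scaffold00927, with differences of -6.41 and -4.84. Both were higher in low nitrogen root, but of these 2 genes the scaffold00464 gene alone passed the threshold as lower in low nitrogen leaf, since the scaffold00927 gene had a leaf log2 ratio of -0.69 on 2 and 5 reads.

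Calls in the same direction in both organs were few. Higher in low nitrogen in both were 3 genes (1.41%), against 1.15% of all genes, and lower in both were 5 genes (2.35%), against 0.545%. Higher in low nitrogen root and lower in low nitrogen leaf were 2 genes (0.939%), against 0.223%, and the reverse held for 1 gene (0.469%), against 0.256%.

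The 3 genes higher in both organs were root preferring and low in leaf. The 461-base gene on scaffold01000 was at 43.7 RPKM in low nitrogen root and 10.3 in control root. In low nitrogen leaf it was at 3.96 RPKM, on 5 reads, and in control leaf it was listed at 0. The 1436-base gene on scaffold03611 was at 27.3 RPKM in low nitrogen root and 6.82 in control root, and at 6.48 and 0.76 RPKM in low nitrogen and control leaf. The 2571-base gene on scaffold03611 was at 22.1 RPKM in low nitrogen root and 10.1 in control root, and at 4.88 and 1.33 RPKM in low nitrogen and control leaf.

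The 5 genes lower in both organs were, besides the 10101-base gene on scaffold01239 and the 1121-base gene on scaffold01001, the 472-base gene on scaffold02653 and 2 genes on scaffold01658. The scaffold02653 gene was at 6.19 RPKM in low nitrogen leaf and 28.2 in control leaf, 4.55-fold lower (counting interval 2.10 to 11.3), beside its root values above. The 613-base gene on scaffold01658 was at 16.1 RPKM in low nitrogen leaf and 73.4 in control leaf, 4.56-fold lower (counting interval 3.00 to 7.18), and was listed at 0 in low nitrogen root and at 2.32 RPKM in control root. The 604-base gene beside it by ID was at 0.42 RPKM in low nitrogen root and 6.66 in control root, 1 and 17 reads. In 4 of these 5 genes control leaf was the highest library.

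**Figure D3:**
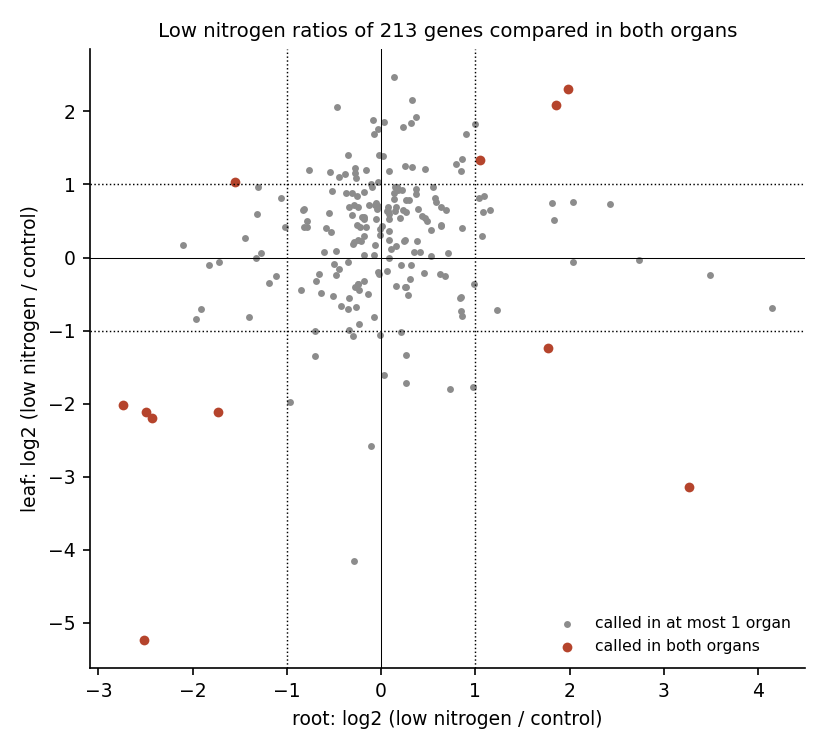
Log2 ratio of low nitrogen to control in leaf (vertical) against root (horizontal) for the 213 genes compared in both organs, 1 point per gene, with dotted lines at a log2 ratio of 1 and -1. The 11 genes called in both organs are in red: 3 at upper right, 5 at lower left, 2 at lower right and 1 at upper left.

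Organ preference and the low nitrogen calls were set side by side. Of the 130 root-preferring genes, 21 (16.2%) were higher and 12 (9.23%) lower in low nitrogen root, against 6.79% and 5.28% of the 2180 root-preferring abundant genes with a homologue. Of the 47 leaf-preferring genes, 5 (10.6%) were higher and 8 (17.0%) lower in low nitrogen leaf, against 9.90% and 8.80% of the 1363 with a homologue. Of the 101 genes with neither preference 100 were compared in leaf, and 25 (25%) were higher and 4 (4%) lower in low nitrogen leaf, against 13.8% and 1.76% of 3358 with a homologue. The median log2 ratio was 0.63 without a homologue and 0.40 with one. Organ classes and low nitrogen calls were made from the same values of each gene. A gene whose leaf level differs between the solutions can leave an organ class for that reason, so differences between the classes are description only.

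The genes without a homologue were short. Their median deposited length was 822.5 bases, with a middle range of 528 to 1566 and extremes of 85 and 10101 bases. The abundant genes with a homologue had a median of 3224 bases, and the 733 genes without a homologue below the threshold had 619. Under 1000 bases were 167 of the 278 genes (60.1%), against 8.81% of the abundant genes with a homologue, and under 500 bases were 62 (22.3%), against 2.22%. RPKM divides by length, so length is not independent of the rule. The length divided by was not the deposited one for every gene, as set out below. The lengths were multiples of 3 in 32.7% of the 278 genes and in 36.0% of all genes, so they are not coding lengths.

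Seen the other way, genes without a homologue made up 35.2% of the abundant genes under 300 bases, 24.4% of those of 300 to under 500 bases and 18.8% of those of 500 to under 1000 bases. They made up 5.01% at 1000 to under 2000 bases, 1.41% at 2000 to under 4000 and 0.552% at 4000 bases or more. Their share was lower in each longer class.

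**Figure D4:**
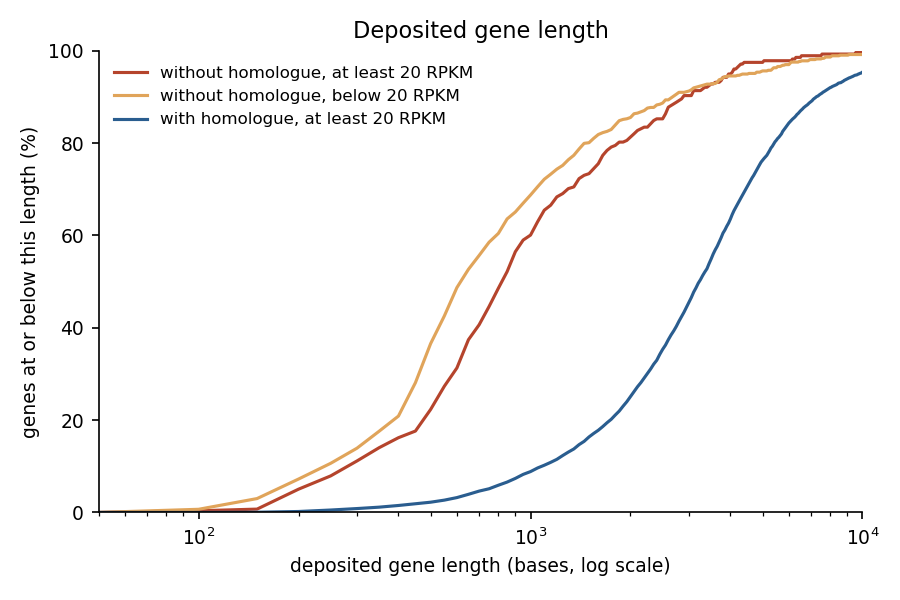
Cumulative share of genes (vertical, %) up to a deposited gene length in bases (horizontal, log scale) for the 278 genes without a homologue at 20 RPKM or more, the 733 without one below it and the 6905 with one at 20 RPKM or more. The medians are 822.5, 619 and 3224 bases.

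Of the 5 shortest genes, reads could be recovered for those of 153 and 166 bases only, and there they were few. The 85-base gene on scaffold02995 was at 92.4 RPKM in low nitrogen root and 21.2 in control root and listed at 0 in both leaf libraries. The 141-base gene on scaffold03643 was at 31.1 and 11.7 RPKM in low nitrogen and control leaf, and at 16.1 and 8.39 RPKM in low nitrogen and control root. The 153-base gene on scaffold03356, the highest by its leaf ratio, had 38 and 7 reads in low nitrogen and control leaf, and 29 and 28 reads in low nitrogen and control root.

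The 161-base gene on scaffold00793 was at 91.5 and 87.5 RPKM in low nitrogen and control leaf, and at 25.7 and 15.3 RPKM in low nitrogen and control root. The 166-base gene on scaffold01144 was listed at 0 in both leaf libraries and was at 48.5 and 41.3 RPKM in low nitrogen and control root, on 32 and 29 reads. In the 153-base and 166-base genes a level near 48 RPKM in low nitrogen root stood for about 30 reads.

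Of the 5 longest genes, 3 were called in neither organ between the solutions. The 9510-base gene on scaffold00995 was at 76.1 and 48.8 RPKM in low nitrogen and control leaf, and at 71.3 and 67.8 RPKM in low nitrogen and control root. The 7544-base gene on scaffold00542 was at 3.06 and 2.85 RPKM in low nitrogen and control leaf, and at 26.6 and 20.7 RPKM in low nitrogen and control root. The 6549-base gene on scaffold03080 was at 5.05 and 2.20 RPKM in low nitrogen and control leaf, and at 21.1 and 18.5 RPKM in low nitrogen and control root. The others were the 10101-base gene on scaffold01239 and the 6282-base gene on scaffold01989, which was at 47.9 RPKM in low nitrogen root and 7.88 in control root, listed at 0 in low nitrogen leaf, and had 1.95 RPKM in control leaf.

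Low nitrogen calls were then counted within classes of length, since among genes with a homologue the shorter classes were called more often in root. There, 6 of 30 genes without a homologue under 300 bases (20%) were called either way in low nitrogen, against 21.6% of those with one. At 300 to under 500 bases it was 11 of 29 (37.9%) against 26.4%, at 500 to under 1000 bases 24 of 102 (23.5%) against 21.6%, and at 1000 to under 2000 bases 12 of 54 (22.2%) against 14.9%. At 2000 to under 4000 bases it was 2 of 36 (5.56%) against 9.77%, and at 4000 bases or more 3 of 14 (21.4%) against 6.69%. Over all lengths the shares had been 21.9% and 10.5%, and 10.5% is also the share of all genes called either way. In 4 of the 6 length classes the share without a homologue was the higher one.

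In leaf, the shares were 27.3% of 22 genes under 300 bases against 24.5%, 44% of 25 genes at 300 to under 500 bases against 22.5%, and 26.3% of 80 genes at 500 to under 1000 bases against 21.1%. They were 30.6% of 49 genes at 1000 to under 2000 bases against 20.3%, 18.4% of 38 genes at 2000 to under 4000 bases against 13.9%, and 16.7% of 12 genes at 4000 bases or more against 13.8%. In leaf the genes without a homologue had the higher share in each of the 6 length classes, and 17.2% of all genes were called either way. The shares lay close together under 300 bases, with 6 of 22 genes called, and at 4000 bases or more, with 2 of 12. In leaf and root alike, genes could pass the threshold through the libraries compared, so the counts by length class are description only.

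**Figure D5:**
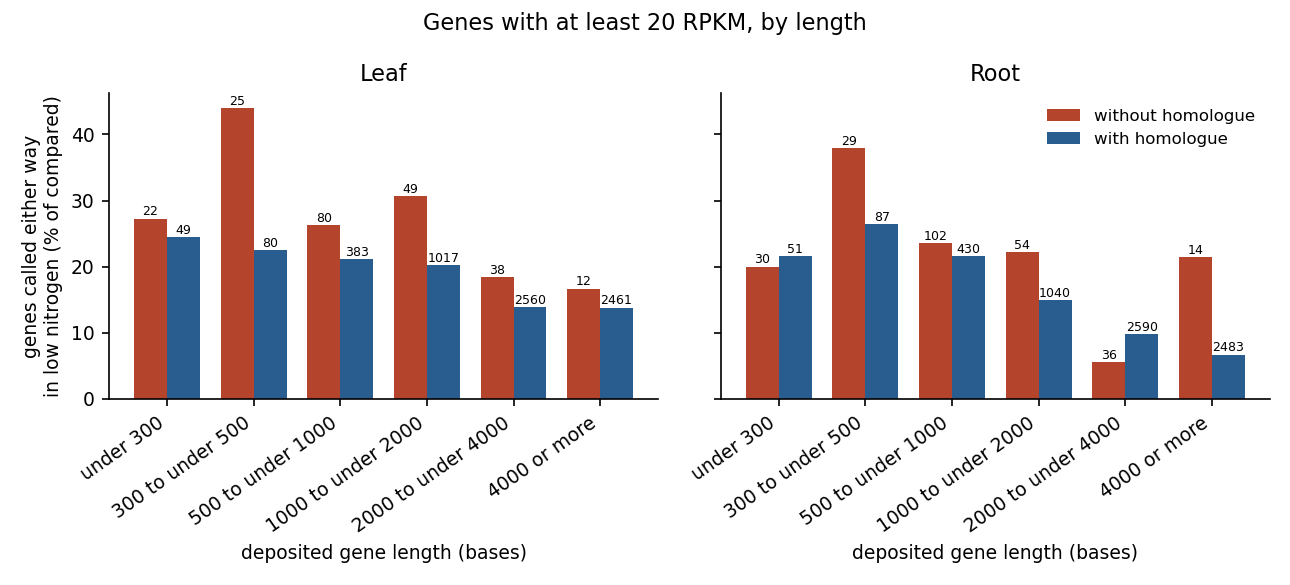
Share of compared genes at 20 RPKM or more that were called higher or lower in low nitrogen (vertical, %) by deposited gene length (horizontal), in leaf (left) and root (right), for genes without a homologue (red) and with one (blue); the number over each bar is the genes compared. In root the bars of a class lie close together under 300 bases (20% and 21.6%) and at 500 to under 1000 bases (23.5% and 21.6%) and apart in other classes. In leaf each red bar is above its blue one, by little under 300 bases (27.3% and 24.5%) and at 4000 bases or more (16.7% and 13.8%).

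Root preference was also counted within these classes. At 500 to under 1000 bases 52.4% of the genes without a homologue were root preferring, against 37.4% of those with one, and at 1000 to under 2000 bases 45.8% against 35.2%. Under 300 bases the shares were 35.5% and 36.8%. Root preference at 300 to under 500 bases was found for 54.8% against 34.4%, at 2000 to under 4000 bases for 39.5% against 30.4%, and at 4000 bases or more for 35.7% against 29.9%. The share without a homologue was higher in 5 of the 6 classes, under 300 bases being the exception.

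The length behind the RPKM was set against the deposited one. RPKM times length times depth gives a whole number of reads when the right length is used, and 112 of 274 genes open to this check (40.9%) gave whole reads in every library at their deposited length. Among 6450 abundant genes with a homologue it was 7.05%, and among 577 genes without one below the threshold it was 45.8%. Within classes of length, the shares of abundant genes without and with a homologue were 58.1% and 57.9% under 300 bases, 51.6% and 53.1% at 300 to under 500 bases, and 57.1% and 45.1% at 500 to under 1000 bases. They were 29.3% and 11.9% at 1000 to under 2000 bases, 2.63% and 1.02% at 2000 to under 4000 bases, and 0% and 0.287% at 4000 bases or more. For 34 further genes without a homologue exactly 1 shorter length gave whole reads, at a median of 76.9% of the deposited length and at least 50.6%. The deposited length is therefore not the length that every RPKM was divided by, and the lengths given here are those of the table.

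The genes lay on 134 of the 669 scaffolds in the table, 78 of them with 1 such gene and at most 10 on 1 scaffold, which was scaffold03356 with 574 genes in all. The table gives no positions, and whether ID numbers follow position was not tested. Runs of such genes on 1 scaffold with ID numbers at most 30 apart were formed 22 times and held 53 of the 278 genes (19.1%). In 12 runs all genes fell in the same organ class, 8 of them all root preferring and 2 all leaf preferring, while 5 runs held both root and leaf preferring genes. Root preferring were 46.8% of the 278 genes in any case. No count of such runs among other genes is given here to set beside these. Whether the genes cluster or share an organ within runs was not tested. Genes in a run may be copies that share reads, and the sources used here do not say how such reads were assigned.

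The largest run had 4 genes on scaffold01658 and held both directions. Beside the 632-base gene at 3473 and 3844 RPKM in low nitrogen and control root stood the 613-base gene at 16.1 and 73.4 RPKM in low nitrogen and control leaf, the 604-base gene given above, and a 635-base gene at 7.48 and 10.2 RPKM in low nitrogen and control leaf and at 27.7 and 33.9 in low nitrogen and control root. These 4 genes were thus alike in length, at 604 to 635 bases, while their highest levels ranged from 20.3 to 3844 RPKM.

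A run of 3 on scaffold00927 was root preferring throughout, with the 703-base gene above, a 709-base gene at 375 and 419 RPKM and a 541-base gene at 505 and 344 RPKM in low nitrogen and control root. A run of 3 on scaffold01239 was leaf preferring throughout and lower in low nitrogen leaf throughout. The 10101-base and 742-base genes above were joined by a 759-base gene at 60.4 RPKM in low nitrogen leaf and 213 in control leaf, and at 18.3 and 10.6 RPKM in low nitrogen and control root. On scaffold00429 the 3 genes of a run were listed at 0 in both leaf libraries and went different ways in root. The one of 1077 bases was at 117 RPKM in low nitrogen root and 264 in control root, the one of 1037 bases at 37.1 and 16.2, and the one of 1028 bases at 21.04 and 5.06. These 3 genes thus shared their organ and differed in the direction of their low nitrogen ratio.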

How the data were processed

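The submitters' processing notes name Bowtie 0.12.9. No source used here states the build of the genome, how reads were counted or how homologues were found. The authors deposited RPKM values for 18665 genes with a gene length per gene, which are not counts. Log2 ratios were computed as log2((A + 1)/(B + 1)) of the deposited RPKM, which understates the ratios of low genes; genes averaging 1 RPKM or more over the libraries set against each other were compared, and a log2 ratio of 1 or more in size was a call. Depths were found as the number of M reads at which RPKM times length is whole, with a tolerance of 0.00501 RPKM. Reads are given where all libraries were whole at the deposited length with under 0.01 chance matches (112 genes), or at exactly 1 length from 50 bases up with under 0.05 (34 genes); 33 had several lengths, 52 none, and 47 could not be checked. Counting intervals are exact conditional (Clopper-Pearson) 95% intervals; they and the floor of 3 reads cover counting error only. Python 3.11.15, numpy 2.4.6, pandas 2.3.3 and scipy 1.17.1 were used, and the scripts were tested on simulated data.

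Named by rule were the 10 highest genes, the 5 at each end of each ratio (mean of at least 5 RPKM, except for the difference between organs), the 5 shortest and 5 longest, the 5 on each side of the threshold and those called in both organs; genes in ID runs were picked with their values in view. The members, the lists and the thresholds were chosen with earlier results of these data known. Alternatives were other pseudocounts, filters, scalings, thresholds, lengths and call sizes; choosing genes on 1 organ's libraries was added after seeing the data.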

Additional observations from a re-analysis of the deposited data

Results flagged for a closer look

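In 3 genes the 2 organs' low nitrogen ratios passed the threshold in opposite directions. With 1 library per group the difference was not tested. The 472-base gene on scaffold00464 had a leaf minus root difference in log2 ratio of -6.41, on values of 0 and 7.84 RPKM in low nitrogen and control leaf and 34.7 and 2.72 RPKM in low nitrogen and control root. The 861-base gene on scaffold03076 had a difference of -3.00, at 32.1 and 76.9 RPKM in low nitrogen and control leaf and at 4.41 and 0.59 RPKM in low nitrogen and control root. The 798-base gene on scaffold02995 had a difference of 2.57, at 160 and 77.8 RPKM in low nitrogen and control leaf and at 23.01 and 69.06 RPKM in low nitrogen and control root. The reads behind the scaffold02995 gene were 349 and 182 in low nitrogen and control leaf and 73 and 233 in low nitrogen and control root, while those behind the other two could not be settled.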

How the results depend on the processing

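No paired analysis was possible because each group had 1 library. Of 114 recomputed counts of genes called, 91 stayed within 1.5 times of the reported count. In root (30 higher, 28 lower) a threshold of 50 RPKM gave 19 and 18 (10.98% and 10.4%, against 6.17% and 4.34% of all genes). A call at a log2 ratio of 2 gave 11 and 6 in root (4.15% and 2.26%, against 0.888% and 0.619%). Choosing on the leaf libraries gave 10 and 18 in root (6.37% and 11.5%, against 6.17% and 4.34%). In leaf (40 higher, 22 lower) median ratio scaling gave 19 and 34 (8.41% and 15.0%, against 6.10% and 8.78% of all genes). Upper quartile scaling gave 22 and 34 (9.73% and 15.0%, against 7.08% and 7.43%). A log2 ratio of 2 gave 6 and 10 (2.65% and 4.42%, against 1.43% and 0.530%). The higher count was 25 with a pseudocount of 5 (11.1% against 4.51%) and 66 at a threshold of 10 RPKM (21.3% against 13.6%). At 50 RPKM it was 19, and its share of 12.4% was below the 13.6% of all genes. At a threshold of 50 RPKM, 104 genes (57.1%, against 40.4% of all genes) were lower in control leaf than in control root. Lower in low nitrogen leaf than in low nitrogen root were 90 at that threshold (49.5%, against 31.2%). For the difference between organs (52 higher, 27 lower, of 213 genes) median ratio scaling gave 32 higher (15.02%, against 8.08% of all genes). A threshold of 50 RPKM gave 30 higher of 144 genes (20.8% against 16.4%). A log2 ratio of 2 gave 5 higher and 11 lower of 213 (2.35% and 5.16%, against 1.79% and 0.957%). Without a filter 42 of 278 genes were lower (15.1% against 7.002%). With a filter of 5 RPKM 17 of 172 were lower (9.88% against 4.39%). The cause was not tested. The median length was 799 bases at a threshold of 10 RPKM, 816.5 at 50 RPKM, 813 on the mean of all libraries and 802.5 on the control libraries. In low nitrogen leaf, control leaf, low nitrogen root and control root the share of the RPKM sum was 3.67%, 3.35%, 5.92% and 6.43% at 10 RPKM, 3.38%, 3.15%, 5.41% and 5.98% at 50 RPKM, and 3.12%, 3.30%, 6.34% and 6.88% without the 20 genes with the highest mean. Depth limits the genes of 153 and 166 bases, where about 30 reads gave near 48 RPKM in low nitrogen root.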
